A study of Arabidopsis thaliana with 48 samples.

Results

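The response of leaf mRNA to soil drying was measured in Arabidopsis Col-0 (WT), with 3 libraries from plants that went 12 days without water and 3 libraries from plants kept on regular watering. These 6 libraries were chosen by their labels from the 48 of the series and read as raw counts per gene. Rosette leaves of plants grown in soil were collected, and the RNA sequenced is the share of fragmented poly(A) RNA that was kept back before an immunoprecipitation for N6-methyladenosine. Nothing in the labels shows that the libraries are from separate plants, so p-values cover only the spread between libraries, which may be technical. The same model also held 6 mRNA libraries of mta, watered and droughted in the same way, and 12 polysomal libraries of both genotypes were fitted apart. In mta, on the Col-0 background, a mutation of the mRNA adenosine methylase MTA is complemented by MTA under the ABI3 promoter, which is active mainly in embryos.

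A plant that runs out of water closes its stomata under abscisic acid (ABA), protects its cells with dehydrins and solutes, and takes apart its photosynthetic machinery. Those classic responses are not described as groups here, and a gene of theirs is named only where a rule for single genes picked it. Growth, nutrient uptake, organelle maintenance and chemical defence also draw on carbon and nitrogen, and each is run by its own regulators and enzymes. The genes below come mainly from 40 lists on such functions, and from the genes with the largest change outside the ABA and photosynthesis lists. Up to 3 genes were also named from each of the ABA, photosynthesis and tissue marker lists. Values are counts per 1000000 library counts (CPM), scaled between libraries by TMM and not corrected for gene length, so levels are compared between libraries of 1 gene only.

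The 6 WT libraries held between 1504013 and 5445693 counts. Pearson's r of log2 CPM over genes was between 0.96 and 0.986 within a group and between 0.707 and 0.73 across groups. The smallest library, control replicate 3, was also rich in plastid transcripts, at 11.7% of its counts, where the other 5 WT libraries had 2.87% to 3.98%. Photosynthesis genes summed to between 95360 and 105600 CPM in the control libraries and to between 23160 and 23450 in drought. Of markers of other organs, 8 seed storage genes summed to at most 0.607 CPM in control and 1.35 in drought. The root markers CASP1, EXPA7 and COBL9 had no counts in either group, while all 7 root markers summed to between 184.4 and 198.8 CPM in control and to between 51.4 and 60.1 in drought, mostly from PYK10, a beta-glucosidase of endoplasmic reticulum bodies. For 8 flower and meristem markers the sums were 54.2 to 67.2 CPM in control and 15.3 to 18.0 in drought. For 8 trichome and guard cell markers they were 62.0 to 63.4 CPM in control and 25.5 to 34.0 in drought. The part of these tissues in the results below was not tested.

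Of 17666 genes tested with edgeR's quasi-likelihood test, 12000 passed an adjusted p of 0.05 (67.9%). They split into 5762 that rose (32.6%) and 6238 that fell (35.3%). A stricter test against a change of 2-fold (glmTreat) called 4873 genes (27.6%), of which 1589 were up (8.99%) and 3284 down (18.6%). For 12433 genes (70.4%) the 3 drought libraries did not overlap the 3 control libraries. Genes named below for a change were picked partly for this lack of overlap, so it is not separate support for them. The median log2 fold change of all genes tested was -0.01. Genes up beyond 2-fold had a median span of 2160 bases and genes down beyond 2-fold one of 2288 bases, against 2465 bases for all genes tested. Because so many genes passed, a list was read against those shares, and no list was tested as a whole. Rose and fell mean an adjusted p under 0.05 in edgeR's quasi-likelihood test, and beyond 2-fold means the stricter test. Fold changes are on the log2 scale ± SE, with 3 libraries per group. Apart from the steady genes described further on, every named gene had an adjusted p between 1.6e-21 and 0.0140 in that test of WT mRNA. In these bulk samples, fewer cells of a type and less RNA per cell cannot be told apart.

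**Figure D1:**
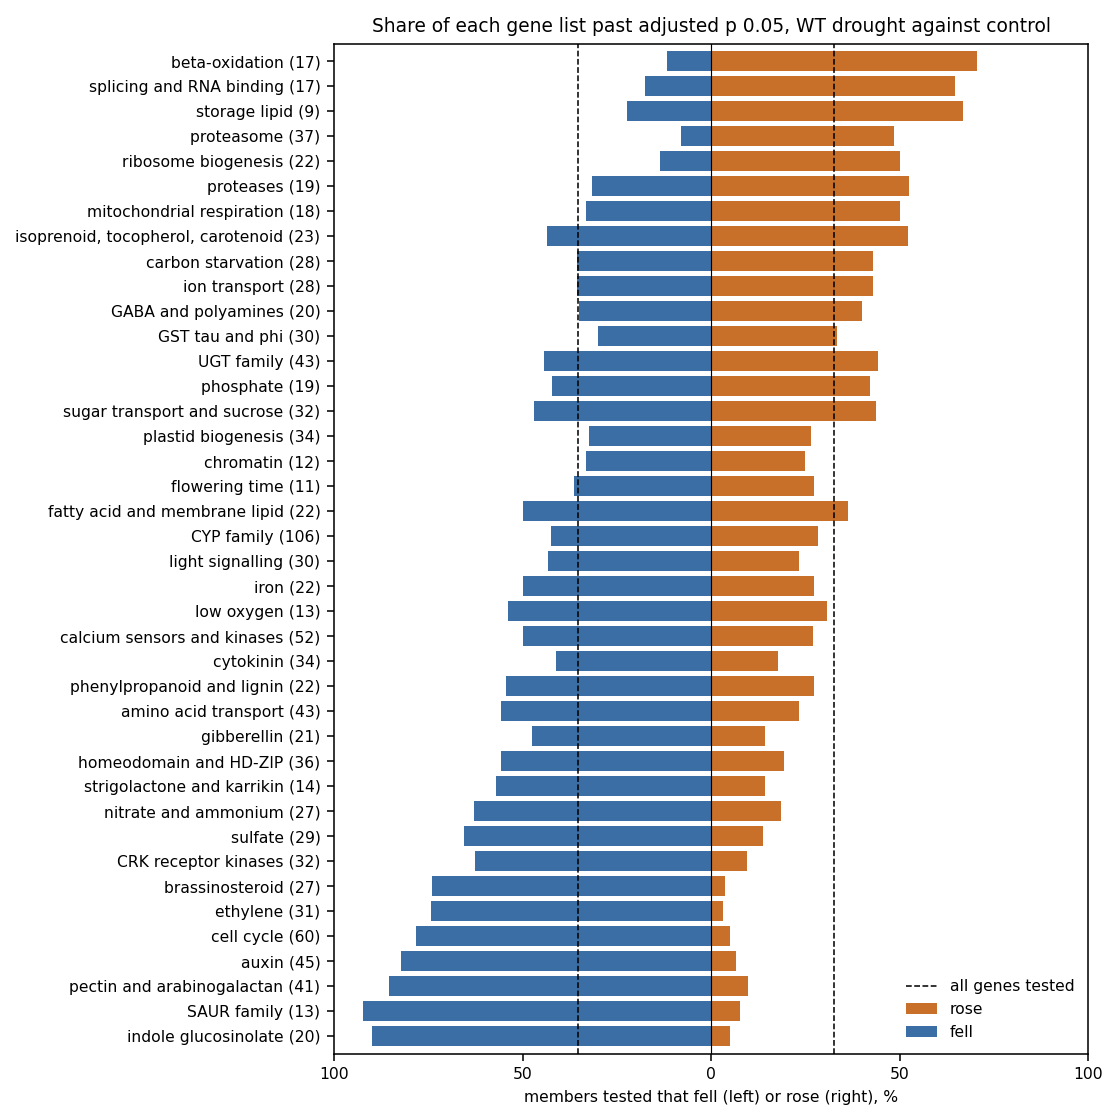
Share of the tested members of each of 40 gene lists that rose (right) or fell (left) in WT drought, in percent, with the number tested in brackets. Dashed lines mark all genes tested, at 32.6% up and 35.3% down. Indole glucosinolate, SAUR, pectin and arabinogalactan, auxin and cell cycle lists reach farthest to the left, and beta-oxidation, storage lipid and splicing lists farthest to the right.

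Sugar handling moved in both directions. Of 32 tested genes for sugar transport and sucrose metabolism, 14 rose and 15 fell, and the list median of -0.12 changed sign under several settings. The members with the largest changes all went up. SWEET15 (AT5G13170), a sugar efflux transporter at chromosome 5, 4181042 to 4183354 of TAIR10, had 1.08, 2.02 and 0.700 CPM in the 3 control libraries and 735, 713 and 780.4 in the 3 drought libraries. That is a log2 fold change of 9.00 ± 0.20, from near the detection limit to a well-expressed gene, and no control library came near the drought libraries. SWEET4 (AT3G28007), another sugar facilitator, went from 0.723, 3.85 and 4.90 CPM to 179.6, 175 and 198 (6.16 ± 0.23). The sucrose synthase SUS3 (AT4G02280), which splits sucrose into UDP-glucose and fructose, went from 13.2, 9.51 and 12.6 CPM to 575, 573 and 565 (5.62 ± 0.15). In all 3 genes the lowest drought library lay far above the highest control library.

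Genes known to respond to carbon starvation were divided as well, with 12 of 28 up, 10 down and a median of 0.17. BGLU30 (AT3G60140), a dark-induced beta-glucosidase, rose from 12.3, 12.3 and 11.2 CPM to 157, 148 and 170.2 (3.70 ± 0.13). DIN11 (AT3G49620), a dark-induced dioxygenase, fell from 18.8, 23.7 and 24.5 CPM to 0.684, 0.824 and 0.451 (-5.02 ± 0.31). BCAT-1 (AT1G10060), a mitochondrial branched-chain aminotransferase, also fell, from 9.04, 8.70 and 6.30 CPM to 0.228, 1.10 and 1.13 (-3.35 ± 0.41). The shares of the list were 42.9% up and 35.7% down, against 32.6% and 35.3% of all genes tested. Beyond 2-fold 6 of 28 rose and 6 fell, against 8.99% and 18.6% of all genes tested.

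Nitrogen uptake and signalling genes were lower. Of 27 tested members, 17 fell and 5 rose, with 11 down and 3 up beyond 2-fold and a median of -1.12. NRT1.1 (AT1G12110), the nitrate transporter and sensor at chromosome 1, 4105223 to 4109601 of TAIR10, had 127, 111 and 127 CPM in control and 12.5, 14.3 and 9.02 in drought (-3.35 ± 0.15). The ammonium transporter AMT1;2 (AT1G64780) had 14.8, 15.2 and 32.2 CPM and then 0.228, 0.824 and 0 (-5.69 ± 0.56), with control replicate 3 the highest library. LBD38 (AT3G49940), a nitrate-induced transcription factor, dropped from 54.2, 52.2 and 44.8 CPM to 4.79, 1.65 and 4.06 (-3.83 ± 0.25). Amino acid transporters went the same way: 24 of 43 tested fell and 10 rose, while 21 of 64 members had too few counts. The amino acid permease AAP6 (AT5G49630) had 87.3, 90.3 and 107 CPM in control and 4.33, 4.94 and 2.03 in drought (-4.65 ± 0.20). GDU3 (AT5G57685), of the GLUTAMINE DUMPER family, changed by -4.59 ± 0.29 and the exporter family member UMAMIT36 (AT1G70260) by -4.57 ± 0.40. The summed CPM of the amino acid transport list overlapped between groups, at 1181 to 1222 in control and 1195 to 1297 in drought.

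Sulfur assimilation was also lower, with 19 of 29 tested genes down, 4 up and a median of -1.13. APS3 (AT4G14680), an ATP sulfurylase that makes the first activated form of sulfate, had 84.8, 81.4 and 77.0 CPM in control and 5.24, 7.69 and 4.06 in drought (-3.87 ± 0.16). AKN2 (AT4G39940), the kinase that acts on its product, had 103, 97.4 and 75.6 CPM and then 6.38, 6.59 and 8.12 (-3.73 ± 0.18). LSU2 (AT5G24660), a small protein named for its response to low sulfur, had 0.456, 0.275 and 1.13 CPM in drought, a change of -4.15 ± 0.39. All drought libraries lay below all control libraries for these 3 genes, as the rule for naming them required.

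Phosphate, iron and other ions gave no common direction. Of 19 phosphate genes 8 rose and 8 fell. PPCK1 (AT1G08650), the kinase of phosphoenolpyruvate carboxylase, rose by 2.50 ± 0.10 and the acid phosphatase PAP17 (AT3G17790) by 2.10 ± 0.12, while the phosphate exporter PHO1 (AT3G23430) changed by -2.08 ± 0.19. Of 22 iron genes 6 rose and 11 fell; their median was -0.26 and turned to 0.07 without control replicate 3. The ferritin FER2 (AT3G11050), an iron store, had 0.904, 0.405 and 1.40 CPM in control and 28.5, 25.5 and 28.6 in drought (5.13 ± 0.29). The iron-sulfur protein NEET (AT5G51720) went from 25.7, 32.2 and 13.3 CPM to 1.14, 0.549 and 0.451 (-5.11 ± 0.43), and NAS4 (AT1G56430), which makes the metal chelator nicotianamine, changed by -4.59 ± 0.44. Among 28 ion transport genes 12 rose and 10 fell. The vacuolar malate transporter TDT (AT5G47560) went from 295, 272 and 306 CPM to 1683, 1684 and 1574 (2.50 ± 0.09). KEA1 (AT1G01790), a potassium antiporter of the chloroplast envelope, changed by -2.48 ± 0.14, and OSCA1 (AT4G04340), a calcium channel gated by osmotic stress, by -2.01 ± 0.12.

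**Figure D2:**
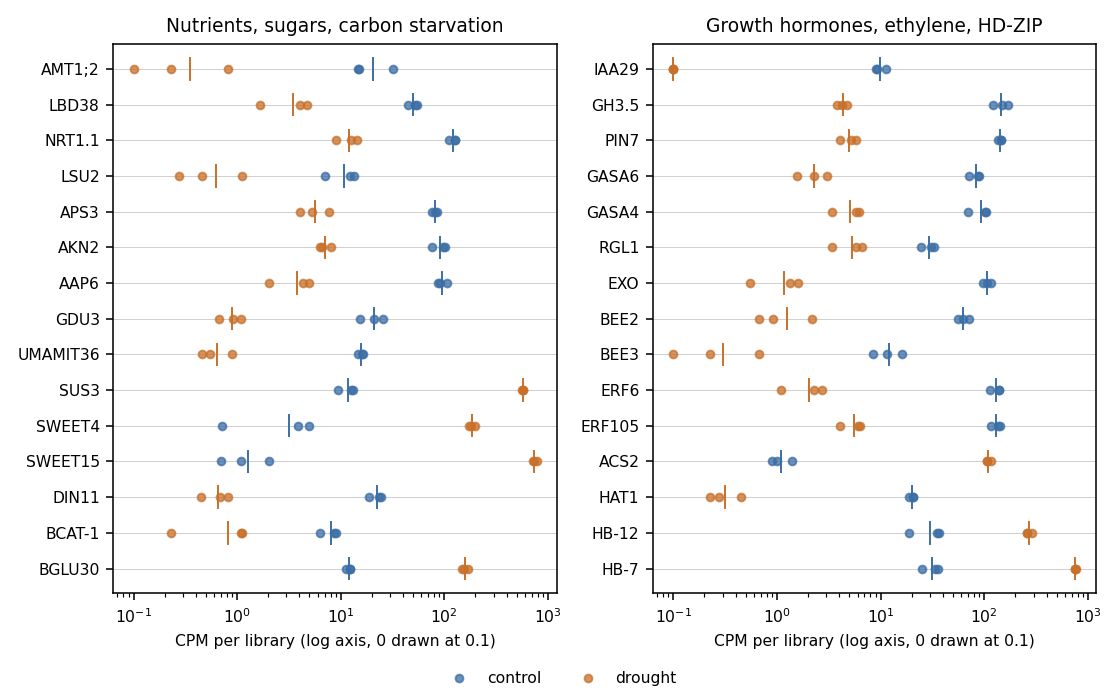
CPM in each WT library (log axis, 0 drawn at 0.1) of 30 named genes from the nitrogen, sulfur, amino acid transport, sugar and carbon starvation lists (left) and the auxin, gibberellin, brassinosteroid, ethylene and homeodomain lists (right). Points are libraries and bars are means of 3. A lack of overlap between the groups was a condition for naming these genes. SWEET15, SWEET4, SUS3, BGLU30, ACS2, HB-7 and HB-12 are higher in drought and the others lower.

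Most auxin, SAUR and brassinosteroid genes fell. Falls were fewer among gibberellin genes (47.6%) and cytokinin genes (41.2%), against 35.3% of all genes tested. In these 2 lists only 14.3% and 17.6% rose, against 32.6% of all genes tested. Among auxin genes 37 of 45 tested were down (82.2%) and 3 up, with 25 down and none up beyond 2-fold, at a median of -1.44; 1 rose without drought replicate 1. PIN7 (AT1G23080), an auxin efflux carrier at chromosome 1, 8180189 to 8183650 of TAIR10, had 146, 136 and 144 CPM in control and 4.10, 5.77 and 5.19 in drought (-4.82 ± 0.15). GH3.5 (AT4G27260), which conjugates auxin to amino acids, had 148, 121 and 170.2 CPM and then 4.79, 3.84 and 4.28 (-5.05 ± 0.19). IAA29 (AT4G32280), an auxin-induced repressor, had 112 counts over the control libraries and none over the drought libraries. Set against a floor of 3 counts over a group, it was at least 39.1-fold lower.

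Of 13 tested SAUR genes, whose small proteins promote cell expansion and respond quickly to auxin, 12 fell beyond 2-fold and 1 rose beyond it. The list holds only 16 genes, found by their symbol in the annotation, and 3 of them had too few counts for the test. The list median was -5.66, or -3.77 with the 5 genes that had no counts in a group set to their bound; the first was -6.79 without drought replicate 3. SAUR22, SAUR23 and SAUR24 are neighbouring near-identical copies whose reads the counting could split, so they are uncertain one by one. Their counts went from 83, 96 and 164 over the control libraries to 0, 1 and 3 over the drought libraries.

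Brassinosteroid genes fell in 20 of 27 tested and rose in 1, with a median of -1.52. EXO (AT4G08950), a brassinosteroid-induced protein of the cell wall space, had 115, 97.2 and 107 CPM in control and 1.60, 0.549 and 1.35 in drought (-6.43 ± 0.21). The transcription factor BEE2 (AT4G36540), which promotes growth, had 71.0, 61.9 and 56.0 CPM and then 0.912, 2.20 and 0.676 (-5.70 ± 0.22), and its relative BEE3 (AT1G73830) changed by -5.21 ± 0.50. Of 21 gibberellin genes 10 fell, 9 of them beyond 2-fold, and 3 rose, none beyond 2-fold. Falls beyond 2-fold made up 18.6% of all genes tested. The list's summed CPM went from between 1234 and 1343 in control to between 435 and 461 in drought. The median of -0.13 was 0.03 with the trend along gene span removed. It was -1.39, with 12 down, without the low-count filter. The gibberellin-induced peptide gene GASA6 (AT1G74670) fell from 86.6, 89.9 and 71.4 CPM to 2.28, 3.02 and 1.58 (-5.21 ± 0.20). GASA4 (AT5G15230) changed by -4.22 ± 0.18, and the growth repressor RGL1 (AT1G66350), a DELLA protein, by -2.53 ± 0.21. GASA3, of the same peptide family as GASA4 and GASA6 but not on this list, rose and is described further on.

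Among 34 cytokinin genes 14 fell and 6 rose. The 3 with the largest change break cytokinins down. CKX4 (AT4G29740) had 238 counts in control and none in drought, at least 83.1-fold lower against the same floor. CKX6 (AT3G63440) had 196 counts in control and 3 in drought, a ratio of 68.4-fold (95% counting interval 23.1 to 335). CKX1 (AT2G41510) had 96 and 1, a ratio of 101-fold (95% counting interval 17.6 to 4012).

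Ethylene genes fell in 23 of 31 tested, with a median of -1.29. The 1 that rose was ACS2 (AT1G01480), an enzyme that makes the ethylene precursor ACC, with 0.904, 1.01 and 1.40 CPM in control and 106, 116 and 106 in drought (6.71 ± 0.19). Without control replicate 3 or without drought replicate 3, 2 rose. The ethylene response factors ERF6 (AT4G17490) and ERF105 (AT5G51190) fell. ERF6 had 139.6, 139 and 114 CPM in control and 2.28, 1.10 and 2.71 in drought (-5.97 ± 0.20), and ERF105 changed by -4.59 ± 0.16. Of 14 strigolactone and karrikin genes 8 fell and 2 rose. The repressors SMAX1 (AT5G57710) and SMXL7 (AT2G29970) changed by -0.82 ± 0.12 and -0.84 ± 0.14, and LBO1 (AT3G21420), a late enzyme of strigolactone synthesis, by -1.89 ± 0.50 from at most 5.60 CPM in control.

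Genes of dividing and expanding cells were much lower. Of 60 tested cell cycle genes 47 fell, 41 of them beyond 2-fold, and 3 rose, at a median of -2.21. The mitotic cyclin CYCA2;3 (AT1G15570) went from 131 counts over the control libraries to none in drought, at least 45.7-fold lower. CDC20.1 (AT4G33270), an activator of the anaphase-promoting complex, went from 120 counts to none, at least 41.9-fold lower. PCNA1 (AT1G07370), the sliding clamp of DNA replication, had 124 counts in control and 2 in drought, a ratio of 64.9-fold (95% counting interval 17.6 to 542). The meristem markers KNAT1 (AT4G08150) and STM (AT1G62360) changed by -2.08 ± 0.23 and -1.37 ± 0.18 in the same libraries; their part in the cell cycle result was not tested.

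Pectin and arabinogalactan proteins, which build the wall of growing cells, fell in 35 of 41 tested (85.4%), 31 of them beyond 2-fold, with a median of -3.79. 21 of the 62 members had too few counts for the test. The fasciclin-like arabinogalactan protein FLA9 (AT1G03870) had 106, 107 and 111 CPM in control and 0.228, 0 and 0.676 in drought (-8.27 ± 0.25). FLA2 (AT4G12730) had 217, 169 and 238 CPM in control and 0.228, 0 and 0.226 in drought. That is 2371 counts against 2, a ratio of 1242-fold (95% counting interval 343 to 10259). FLA1 (AT5G55730) had 767 counts against 2. These genes were well expressed in watered leaves and close to absent from the drought libraries.

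Homeodomain transcription factors fell in 20 of 36 tested and rose in 7. The 2 largest rises are the water-deficit regulators HB-7 (AT2G46680) and HB-12 (AT3G61890). HB-7 had 33.4, 35.8 and 25.2 CPM in control and 746, 755 and 772 in drought (4.54 ± 0.11), and HB-12 had 34.9, 36.8 and 18.9 and 260.3, 259 and 291 (3.06 ± 0.14). HAT1 (AT4G17460), linked to brassinosteroid and shade responses, had 20.4, 20.4 and 18.9 CPM and then 0.228, 0.275 and 0.451 (-5.85 ± 0.38). Of 12 chromatin genes 3 rose and 4 fell. The drought-inducible linker histone HIS1-3 (AT2G18050) had 66.3, 73.1 and 54.6 CPM in control and 460.4, 495 and 509.8 in drought (2.89 ± 0.13). The maintenance DNA methyltransferase MET1 (AT5G49160) had 39.6, 39.9 and 35.7 CPM and then 10.7, 6.04 and 7.89 (-2.22 ± 0.17), and the remodeller DDM1 (AT5G66750) changed by -2.25 ± 0.43.

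Beta-oxidation, by which peroxisomes break down fatty acids, had the highest share of rises of the 40 lists. Of 17 tested members 12 rose and 2 fell at a median of 0.62, and 3 rose beyond 2-fold; 1 fell without drought replicate 1 or without drought replicate 2. The peroxisomal citrate synthase CSY3 (AT2G42790) had 72.7, 82.8 and 78.4 CPM in control and 568, 581 and 637 in drought (2.93 ± 0.10). ACX1 (AT4G16760), an acyl-CoA oxidase that opens the cycle, had 144, 142 and 144 CPM and then 444, 436 and 408 (1.58 ± 0.10), and ACX2 (AT5G65110) changed by 1.26 ± 0.09. Of 9 storage lipid genes 6 rose and 2 fell. WRI1 (AT3G54320), a regulator of oil synthesis in seeds, rose by 2.21 ± 0.23, and PES1 (AT1G54570), which esterifies the phytol released from chlorophyll, rose by 1.73 ± 0.13. The caleosin CLO4 (AT1G70670) changed by -1.46 ± 0.26.

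Fatty acid and membrane lipid genes were mixed, with 8 of 22 up and 11 down. The 3 largest changes were falls of plastid proteins. BCCP2 (AT5G15530), a subunit of acetyl-CoA carboxylase, changed by -3.76 ± 0.40, the desaturase FAD8 (AT5G05580) by -2.88 ± 0.19 and the acyl carrier protein ACP4 (AT4G25050) by -1.97 ± 0.12. Isoprenoid, tocopherol and carotenoid genes split into 12 up and 10 down of 23. PDS1 (AT1G06570), the dioxygenase that makes the tocopherol precursor homogentisate, had 70.9, 71.3 and 67.2 CPM in control and 289.7, 306 and 286 in drought (2.07 ± 0.09). NCED4 (AT4G19170), also known as a carotenoid cleavage dioxygenase, changed by -1.98 ± 0.11, and LYC (AT3G10230), a lycopene cyclase, by -1.97 ± 0.13.

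Mitochondrial genes were likewise divided, with 9 of 18 up and 6 down. The dicarboxylate carrier DIC2 (AT4G24570) had 442, 438 and 408 CPM in control and 12.8, 10.2 and 8.57 in drought (-5.35 ± 0.15). BCS1 (AT3G50930), annotated as a stress-responsive AAA-type ATPase of mitochondria, had 216, 207 and 223 CPM and then 12.3, 13.5 and 15.1 (-3.97 ± 0.12). FUM2 (AT5G50950), the cytosolic fumarase that feeds leaf fumarate, changed by -2.67 ± 0.12. Of 13 low-oxygen genes 7 fell and 4 rose. Alcohol dehydrogenase ADH1 (AT1G77120) stood out among them, with 15.7, 11.5 and 14.7 CPM in control and 535, 529 and 551 in drought (5.28 ± 0.13). The cysteine oxidase PCO1 (AT5G15120), part of oxygen sensing, changed by -1.49 ± 0.32.

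GABA and polyamine genes gave 8 up and 7 down of 20. The 2 arginine decarboxylases, which make the polyamine precursor agmatine, went opposite ways. ADC2 (AT4G34710) had 327, 322 and 343 CPM in control and 1729, 1660.0 and 1507 in drought (2.30 ± 0.09). ADC1 (AT2G16500) had 191, 187 and 202 CPM and then 57.2, 54.1 and 50.1 (-1.84 ± 0.10). The glutamate decarboxylase GAD (AT5G17330) changed by -2.41 ± 0.47.

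Protein turnover genes showed more rises than falls. Of 37 tested proteasome subunits 18 rose and 3 fell, none beyond 2-fold in either direction, at a median of 0.28. The subunits RPT1A (AT1G53750), RPT6A (AT5G19990) and PAA1 (AT5G35590) changed by 0.81 ± 0.10, 0.81 ± 0.11 and 0.81 ± 0.10. With the trend along gene span removed, the count became 27 up and 1 down. Of 19 proteases 10 rose, 7 of them beyond 2-fold, and 6 fell, 5 of them beyond 2-fold. Over all genes tested 8.99% rose and 18.6% fell beyond 2-fold. The vacuolar processing enzyme BETA-VPE (AT1G62710) had 7.23, 6.48 and 13.3 CPM in control and 149.5, 147 and 136 in drought (4.21 ± 0.16). FTSH6 (AT5G15250), a thylakoid protease, had 2 counts in control and 148 in drought, a ratio of 70.7-fold (95% counting interval 19.2 to 589). The metacaspase MC2 (AT4G25110) changed by -3.58 ± 0.35.

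Ribosome biogenesis factors rose in 11 of 22 and fell in 3, with a median of 0.42. REIL1 (AT4G31420), which matures the large subunit in the cytosol, had 31.3, 33.8 and 30.8 CPM in control and 138, 134 and 136 in drought (2.08 ± 0.11). It was the 1 member up beyond 2-fold; REIL2 (AT2G24500) changed by 1.11 ± 0.13 and the nucleolar protein FIB1 (AT5G52470) by 1.07 ± 0.10. Splicing and RNA-binding genes rose in 11 of 17 and fell in 3, with a median of 0.46; 1 fell without drought replicate 1. The splicing factors SR45a (AT1G07350) and SR30 (AT1G09140) had 15.9, 19.4 and 18.9 and 35.1, 37.7 and 29.4 CPM in control. In drought they had 85.9, 89.8 and 88.8 CPM and 159.5, 160.4 and 154 CPM, changes of 2.30 ± 0.12 and 2.18 ± 0.11. SCL33 (AT1G55310) changed by 1.74 ± 0.15. Counts were taken over whole gene spans, so they do not tell spliced from unspliced RNA.

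Light signalling genes fell in 13 of 30 and rose in 7. ELIP1 (AT3G22840), an early light-induced protein that binds pigments under high light, had 2.35, 3.04 and 2.80 CPM in control and 240.5, 253 and 242 in drought (6.49 ± 0.18). The shade regulators HFR1 (AT1G02340) and PIL1 (AT2G46970) changed by -4.03 ± 0.24 and -3.01 ± 0.42. Plastid biogenesis genes split into 9 up and 11 down of 34, a split that became 15 and 10 with the span trend removed. PTAC16 (AT3G46780), a protein of the plastid chromosome, had 564, 513 and 545 CPM and then 67.9, 59.6 and 75.1 (-3.00 ± 0.11). TIC62 (AT3G18890), of the chloroplast import machinery, changed by -2.58 ± 0.13, and the sigma factor SIGE (AT5G24120), which directs the plastid polymerase under stress, by 1.69 ± 0.11. Flowering time genes gave 3 up and 4 down of 11. SPL9 (AT2G42200), a promoter of the adult phase, changed by -2.46 ± 0.29, the floral repressor SVP (AT2G22540) by -0.86 ± 0.11 and FRI (AT4G00650) by -0.88 ± 0.30. The change of FRI passed at an adjusted p of 0.014 in edgeR's test, and it missed the threshold without control replicate 3 (-0.67) and without drought replicate 2 (-0.71).

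Indole glucosinolate genes, which make and activate tryptophan-derived defence compounds, fell in 18 of 20, 13 of them beyond 2-fold, with a median of -1.78. CYP83B1 (AT4G31500), which makes the core of indole glucosinolates, had 635, 617 and 677 CPM in control and 41.7, 45.9 and 46.0 in drought (-3.85 ± 0.11). CYP81F2 (AT5G57220), which modifies the indole ring, had 192, 184 and 183 CPM and then 13.2, 16.8 and 11.5 (-3.76 ± 0.13). ESM1 (AT3G14210), which steers the breakdown products, had 366, 356 and 373 CPM and then 16.6, 16.2 and 15.6 (-4.50 ± 0.10). The list's summed CPM went from between 10610 and 11820 to between 4290 and 4506. Control and drought sums were well apart.

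Phenylpropanoid and lignin genes fell in 12 of 22 and rose in 6, while their summed CPM did not overlap, being higher in drought, at 1936 to 2023 in control and 2056 to 2139 in drought. 4CL3 (AT1G65060), the ligase that feeds flavonoid synthesis, changed by -4.89 ± 0.44, and PAL3 (AT5G04230), a phenylalanine ammonia-lyase, by -2.16 ± 0.20. CAD5 (AT4G34230), a cinnamyl alcohol dehydrogenase of lignin synthesis, had 53.1, 59.1 and 26.6 CPM in control and 221, 213 and 209 in drought (2.12 ± 0.15).

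3 large enzyme families held both rises and falls. At an adjusted p under 0.05 their shares were not far from those of all genes tested. Beyond 2-fold, 6 of 30 glutathione transferases, 14 of 43 UDP-glycosyltransferases and 20 of 106 cytochromes P450 rose, against 8.99% of all genes tested. Falls beyond 2-fold were 6, 9 and 26 in the same order, against 18.6%. Of 30 tau and phi glutathione transferases 10 rose (33.3%) and 9 fell (30.0%). GSTU4 (AT2G29460) had 12.7, 11.3 and 12.6 CPM in control and 164, 152 and 175 in drought (3.75 ± 0.12), GSTU9 (AT5G62480) changed by 4.22 ± 0.19 and GSTF11 (AT3G03190) by -5.07 ± 0.45. Of 43 UDP-glycosyltransferases 19 rose (44.2%) and 19 fell (44.2%). UGT85A5 (AT1G22370) had 10.8, 13.6 and 15.4 CPM and then 141, 130.4 and 149 (3.47 ± 0.13), and UGT76E12 (AT3G46660) changed by 5.17 ± 0.24. Of 106 tested cytochromes P450 30 rose (28.3%) and 45 fell (42.5%), and 114 of 220 had too few counts. CYP76C2 (AT2G45570), a monooxygenase of the terpenoid-related CYP76 family, had 3.43, 2.23 and 2.10 CPM in control and 334, 346 and 305 in drought (6.88 ± 0.16). CYP77A6 (AT3G10570), which hydroxylates cutin precursors, had 127 counts in control and 1 in drought, a ratio of 133-fold (95% counting interval 23.4 to 5295). Members of these families include close copies between which the counting could split reads.

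Calcium sensors and their kinases fell in 26 of 52 and rose in 14. The kinase CIPK25 (AT5G25110) had 6.87, 7.29 and 7.70 CPM in control and 171, 171 and 168 in drought (4.56 ± 0.12). The calmodulin-like CML38 (AT1G76650) had 63.8, 76.5 and 51.8 CPM and then 4.10, 4.39 and 5.86 (-3.77 ± 0.24), and the sensor CBL10 (AT4G33000) changed by -3.47 ± 0.37. Cysteine-rich receptor kinases (CRKs), many of which respond to pathogens and reactive oxygen, fell in 20 of 32 and rose in 3, with a median of -1.29; 1 rose without drought replicate 2. CRK40 (AT4G04570) had 122, 120.5 and 104 CPM in control and 5.70, 6.32 and 5.41 in drought (-4.33 ± 0.13), and CRK12 (AT4G23200) changed by -3.69 ± 0.32. CRK38 (AT4G04510) had 17 counts over the control libraries and none in drought, at least 5.94-fold lower.

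Outside the ABA and photosynthesis lists, the 12 genes with the largest rise in mean CPM went from 0.554% to 4.74% of the scaled counts. SIP2 (AT3G57520), at chromosome 3, 21288742 to 21293171 of TAIR10, had 344, 325 and 333 CPM in control and 12539.8, 12379.8 and 11990.1 in drought (5.20 ± 0.09), the largest gain of the 12. It encodes a galactosidase that acts on raffinose-type sugars. The annexin ANNAT1 (AT1G35720), a calcium-dependent membrane protein, had 402, 415 and 323 CPM and then 5373, 5217 and 5592 (3.82 ± 0.11). The peroxidase PRXCB (AT3G49120) had 412, 378 and 441 CPM and then 5431, 5390.4 and 5047 (3.69 ± 0.09). In all 3 the drought libraries agreed closely and lay far above every control library.

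DI21 (AT4G15910), named for its induction by drought, had 20.6, 20.2 and 16.8 CPM in control and 2594, 2524 and 2900.1 in drought (7.08 ± 0.16). The aldehyde dehydrogenase ALDH7B4 (AT1G54100), which detoxifies reactive aldehydes, had 121, 136 and 119.8 CPM and then 2115, 2008 and 2106 (4.04 ± 0.09). The glycine-rich protein gene GRP-3 (AT2G05520) changed by 2.02 ± 0.09, the metallothionein MT2A (AT3G09390) by 2.56 ± 0.15, the late embryogenesis abundant protein SAG21 (AT4G02380) by 2.52 ± 0.12 and the aleurain-like protease SAG2 (AT5G60360) by 1.80 ± 0.10. The other 3, AT4G16190, AT2G33830 and AT1G13930, carry no symbol in the annotation and changed by 2.08 ± 0.09, 2.28 ± 0.12 and 2.63 ± 0.12. Control replicate 3 was the lowest control library for 10 of the 12 genes.

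The 12 genes with the largest fall in mean CPM went from 4.27% to 1.31% of the scaled counts. They include 2 light-harvesting genes and 1 plastid gene that the photosynthesis list used here does not hold. PRP4 (AT4G38770), a proline-rich wall protein, had 2512, 1741 and 3272 CPM in control and 57.9, 68.1 and 59.1 in drought (-5.34 ± 0.30). CWLP (AT3G22120), another proline-rich wall protein, had 1999, 1265 and 2417 CPM and then 125, 159 and 124 (-3.80 ± 0.28). ECS1 (AT1G31580), a small cell wall protein linked to resistance to Xanthomonas, had 1809.8, 1763 and 1796 CPM and then 80.2, 78.0 and 70.8 (-4.55 ± 0.09). The control libraries of PRP4 and CWLP spread widely around their mean. All lay above the drought libraries, as the rule for naming these genes required.

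The peroxidase PRXR1 (AT4G21960) had 6077, 5744 and 5535 CPM in control and 1057, 1071 and 992 in drought (-2.48 ± 0.08). PEN3 (AT1G59870), an ABC transporter of defence compounds, changed by -1.43 ± 0.17, the methionine synthase ATMS1 (AT5G17920) by -1.99 ± 0.15 and the catalase CAT3 (AT1G20620) by -0.33 ± 0.08. CAT3 is on the list because it is abundant, at 7651, 7119 and 7548 CPM in control, not because its relative change was large. The light-harvesting genes LHB1B1 and LHB1B2 are close copies, uncertain one by one, and changed by -4.83 ± 0.12 and -2.03 ± 0.09. The plastid gene ATCG00480 changed by -1.26 ± 0.35, with 5863, 4114 and 7103 CPM in the control libraries, the highest of them in the library rich in plastid counts. AT2G43150 and AT2G10940, without a symbol, changed by -5.67 ± 0.32 and -10.11 ± 0.36.

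**Figure D3:**
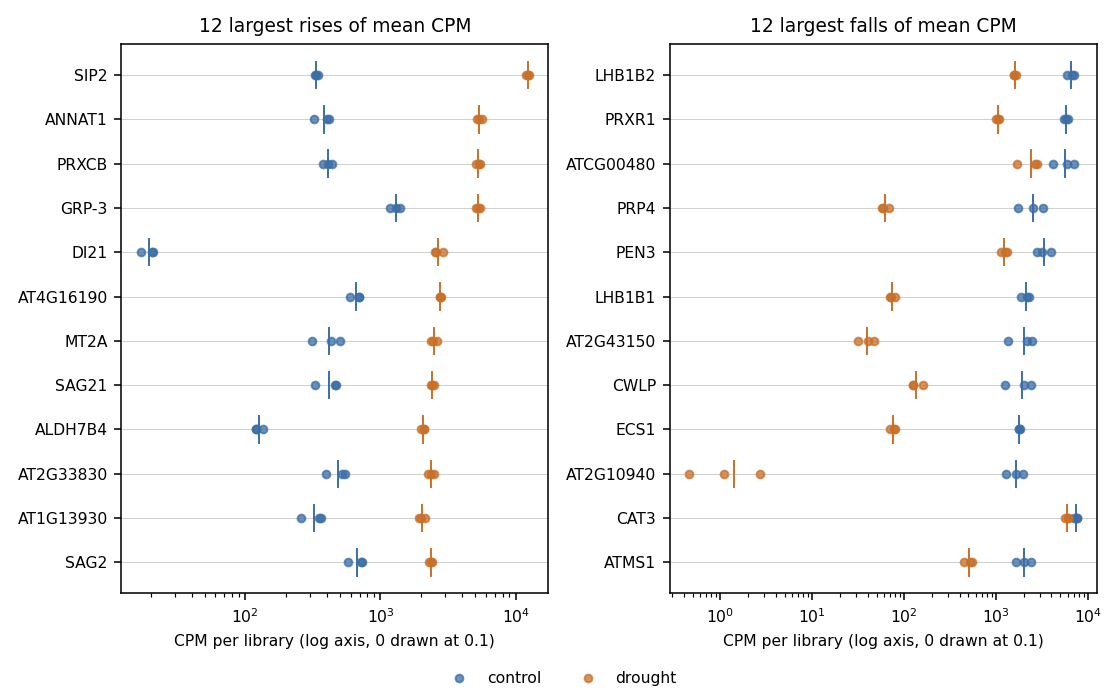
CPM in each WT library (log axis, 0 drawn at 0.1) of the 12 genes with the largest rise (left) and the 12 with the largest fall (right) of mean CPM outside the ABA and photosynthesis lists. Points are libraries and bars are means of 3. SIP2 leads the rises of mean CPM, at 12539.8, 12379.8 and 11990.1 CPM in drought. LHB1B2 leads the falls of mean CPM, from 6539 in control to 1601 in drought. On the log axis AT2G10940 falls farthest, to between 0.456 and 2.71 CPM.

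Among genes with a mean log2 CPM of 4 or more, several went from no counts to clear expression. GASA3 (AT4G09600), of the gibberellin-regulated peptide family, had no counts in control and 118, 126 and 130.1 CPM in drought, at least 495-fold higher. The metallothionein AtMT4a (AT2G42000), known from seeds, had none in control and 80.5, 96.7 and 95.2 CPM in drought, at least 359-fold higher. SOM (AT1G03790), a zinc finger protein known as a repressor of seed germination, had none in control and 52.7, 53.5 and 46.0 CPM in drought, at least 200.5-fold higher. In the same libraries the 8 seed storage markers stayed at or near 0, OLEO2 included at 8 counts over the drought libraries.

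NADP-ME1 (AT2G19900), a malic enzyme, had 0, 0 and 2.80 CPM in control, all from replicate 3, and 287, 288 and 294 in drought. Of the other 8 rises, AT3G02480 changed by 11.20 ± 0.21 and AT5G35660, AT3G15670, AT3G03620 and AT5G44310 had no counts in control. AT2G42560, AT3G17520 and AT5G66780 had 1, 3 and 3 counts in control against 15451, 20406 and 3183 in drought. None of these 8 carries a symbol in the annotation. Lists were matched by gene name, so the ABA list could miss genes of that response that carry no symbol.

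Among the 12 largest falls on the log2 scale, the expansin EXPA8 (AT2G40610), which loosens cell walls, had 93.5, 92.3 and 91.0 CPM in control and none in drought, at least 385-fold lower. The glycosyl hydrolase GH9B13 (AT4G02290) had 67.2, 53.8 and 80.5 CPM and none, at least 263-fold lower. XTH7 (AT4G37800), a xyloglucan-modifying enzyme, had 845 counts in control and 1 in drought, a ratio of 885-fold (95% counting interval 158 to 34999). The acyltransferase AACT1 (AT5G61160) had 1654 counts and 1, and the germin-like GER3 (AT5G20630) had 180.4, 189.9 and 182 CPM and then 0.456, 0.275 and 0.451 (-8.74 ± 0.23). FLA2 and AT2G10940 belong here too. The remaining 5 genes, without a symbol, AT5G63180, AT5G33370, AT3G53190, AT5G45670 and AT1G31690, went from between 396 and 1416 counts in control to none.

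Some abundant transcripts were steady. For 80 genes the 95% interval of the log2 fold change lay within -0.25 and 0.25. Those with the highest mean log2 CPM over the 12 mRNA libraries were GSTF9 (AT2G30860), GAPC2 (AT1G13440) and AGT (AT2G13360). The glycolytic enzyme GAPC2 had 1148, 1139 and 994 CPM in control and 1174, 1116 and 1155 in drought (0.07 ± 0.08). GSTF9, a glutathione transferase, changed by -0.07 ± 0.08, and AGT, the peroxisomal aminotransferase of photorespiration, by -0.04 ± 0.09. FBR12 (AT1G26630), a translation factor of the eIF5A family, and the actin ACT8 (AT1G49240) changed by 0.04 ± 0.08 and -0.04 ± 0.08. IGMT4, AT1G56220 and AT5G21090 complete the first 8. The interval of GAPC2 reached 0.23, and it passed the test with the span trend removed (0.17).

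The polysomal libraries, which share no library with the mRNA comparison, gave the same direction for nearly all named genes that passed in mRNA. There 15614 of 20439 genes passed edgeR's test (76.4%), 36.3% up and 40.1% down. Of the 180 named genes that passed in mRNA, 177 passed in polysomal RNA in the same direction and 1 in the opposite one. These 180 include a few genes of the ABA, photosynthesis and tissue marker lists. The exception was CAT3, with -0.33 ± 0.08 in mRNA and 0.08 ± 0.02 in polysomal RNA. The 8 steady genes are not among these 180. In polysomal RNA ACT8 changed by 0.71 ± 0.05, GAPC2 by 0.24 ± 0.03, IGMT4 by -0.52 ± 0.03 and AGT by -0.43 ± 0.03. AT1G56220 changed by -0.37 ± 0.03, AT5G21090 by -0.14 ± 0.04 and GSTF9 by -0.12 ± 0.03. All of these passed there, while FBR12 (0.04 ± 0.04) did not. Of all genes tested in both, 10815 passed in both in the same direction and 205 in opposite ones.

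SWEET15 changed by 9.12 ± 0.17 in polysomal RNA against 9.00 ± 0.20 in mRNA, SIP2 by 5.60 ± 0.03 against 5.20 ± 0.09 and NRT1.1 by -2.95 ± 0.09 against -3.35 ± 0.15. PIN7 changed by -5.76 ± 0.11 against -4.82 ± 0.15, and CYP83B1 by -3.55 ± 0.05 against -3.85 ± 0.11. AT2G43150 changed by -2.19 ± 0.12 there against -5.67 ± 0.32 in mRNA, CWLP by -1.82 ± 0.05 against -3.80 ± 0.28 and PYK10 by -0.66 ± 0.06 against -1.93 ± 0.10. DI21 changed by 8.36 ± 0.10 against 7.08 ± 0.16. Whether these gene-by-gene gaps exceed their errors was not tested. By list, auxin genes gave 33 down and 6 up of 45, pectin and arabinogalactan genes 35 down and 5 up of 41, and beta-oxidation genes 14 up and 2 down of 17. Ribosome biogenesis gave 19 up and 1 down of 22. The proteasome list had the most members in opposite directions, with 16 up and 10 down of 37 and 3 members called in opposite directions in the 2 assays.

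**Figure D4:**
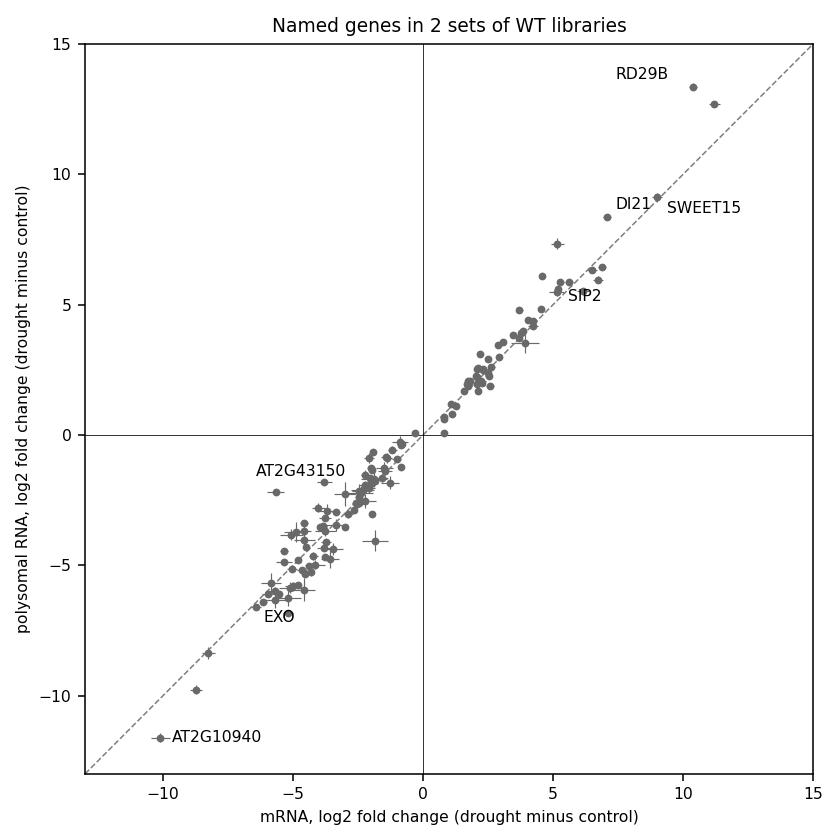
Log2 fold change of WT drought against control in mRNA (x axis) and in polysomal RNA (y axis) for the 143 named genes past the threshold in mRNA with more than 3 counts in both groups of both assays. Bars are SE and the dashed line marks equal values. All points but that of CAT3, near 0, lie in the lower left or upper right of the plot.

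The drought effect was also set against that in mta. In mta 12427 genes passed (70.3%), and the difference of the 2 drought effects passed for 6650 genes (37.6%). Of the 180 named genes that passed in WT, 171 passed in mta in the same direction. These genes were picked by their WT change, and the same count over all genes is not given here. The lists differed in which way the difference went, where positive means a drought effect that is higher (less negative or more positive) in mta than in WT, not a higher level. It was positive for 24 and negative for 1 of 32 CRKs, for 18 and 2 of 31 ethylene genes, and for 15 and 2 of 20 indole glucosinolate genes. Amino acid transport gave 20 and 2 of 43, and calcium sensors and kinases 24 and 5 of 52. The opposite held for ribosome biogenesis, with 0 and 18 of 22, for plastid biogenesis, with 0 and 18 of 34, and for light signalling, with 3 and 17 of 30. Over all genes tested 3469 differences were positive and 3181 negative.

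DIN11 showed the largest difference among the named genes with more than 3 counts in each of the 4 groups. In mta it had 42.8, 62.0 and 56.7 CPM in control and 63.0, 64.7 and 68.0 in drought, a change of 0.28 ± 0.12 against -5.02 ± 0.31 in WT. ECS1 had 2227, 2121 and 2109 CPM in mta control and 1129.7, 1118 and 1114 in mta drought, a change of -0.94 ± 0.08 against -4.55 ± 0.09. BCS1 had 229, 212 and 214 CPM and then 110.0, 126 and 138, a change of -0.81 ± 0.10 against -3.97 ± 0.12. In all 3 genes the droughted mta libraries lay far above the droughted WT libraries. All 3 were named by their WT change, and the difference reuses those WT libraries. The choice of genes therefore favours differences that oppose the WT change.

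**Figure D5:**
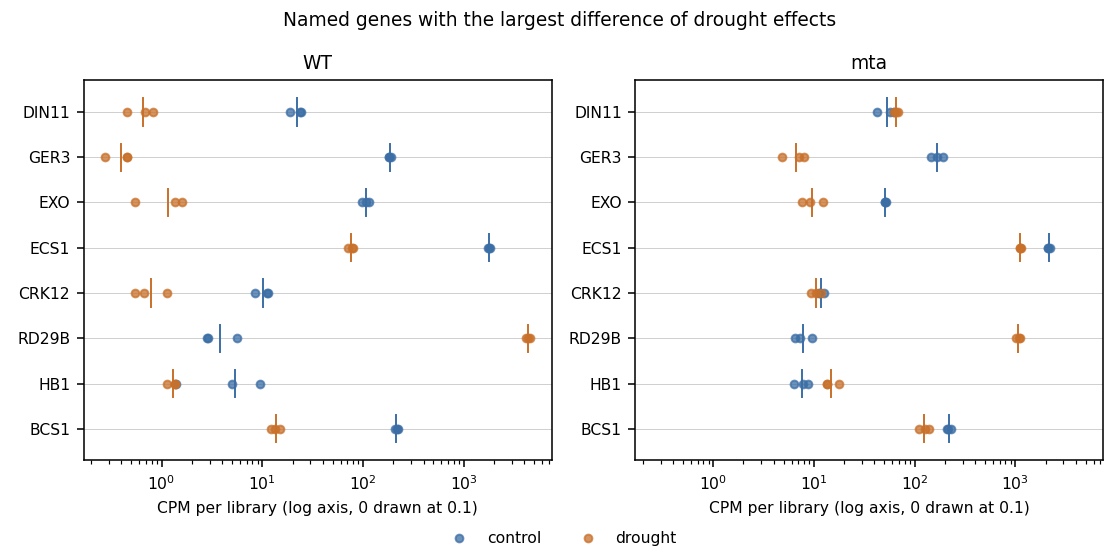
CPM in each library (log axis, 0 drawn at 0.1) of WT (left) and mta (right) for the 8 named genes with the largest difference of drought effects. Points are libraries and bars are means of 3. In drought DIN11, GER3, EXO, CRK12, HB1, ECS1 and BCS1 are higher in mta than in WT, while RD29B is lower.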

How the data were processed

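Per the file headers, the authors made the deposited raw counts with featureCounts 2.0.1 (mRNA) or 2.0.3 (polysomal), by strand, over whole TAIR10 gene spans with introns. Per the submitters' processing notes, Trim Galore, cutadapt and STAR were used, with versions and roles not given in the sources used here. Between 95.5% and 96.6% of polysomal counts up to 20 were even, against 43.9% to 45.9% in mRNA. Paired reads counted singly would give such a pattern, which was not tested. In that case the polysomal totals (35833742 to 43032763 in WT) exceed the number of fragments.

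Counts were fitted in R 4.3.3 with edgeR 4.0.16 (filterByExpr with minimum count 10 and total 15, TMM, quasi-likelihood test, 1 mean per group over 12 mRNA or 12 polysomal libraries). The p-values were adjusted by Benjamini-Hochberg over all tested genes, with a threshold of 0.05. Genes with no counts in a group are bounded by 3 counts over the group, and ratios with 1 to 3 counts carry exact 95% intervals, both for counting error only. The model was tested on simulated data in which few genes changed, equally up and down. That test does not cover data like these, in which most genes passed.

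Members and lists were chosen with earlier results of these data known. Gene names were matched for 27445 of 27655 genes to RefSeq's annotation. From each list, the ABA, photosynthesis and marker lists included, up to 3 members past 0.05 were named. They were those with the largest change, among members with a mean log2 CPM of 2 or more and no overlap between groups. Also named were the 12 largest rises and falls in CPM and, from a mean log2 CPM of 4, on the log2 scale, all outside the ABA and photosynthesis lists, and the 8 most abundant steady genes. Some are left out for length. The 8 differences between genotypes leave out 16 genes with 3 counts or fewer in 1 of the 4 groups, an exception made after their values were seen. No promoter sequences were used here.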

Additional observations from a re-analysis of the deposited data

Results flagged for a closer look

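The drought effect differed between mta and WT beyond the threshold of edgeR's quasi-likelihood test for the 8 named genes below. Each is given as mta minus WT on the log2 scale. These genes were named by their change in the same WT libraries, which favours differences that oppose the WT change. DIN11 differed by 5.30 ± 0.34 (adjusted p 9.3e-11 in edgeR), GER3 by 4.09 ± 0.41 (adjusted p 7.6e-08 in edgeR), EXO by 4.03 ± 0.32 (adjusted p 2.5e-09 in edgeR) and ECS1 by 3.61 ± 0.11 (adjusted p 3.7e-15 in edgeR). CRK12 differed by 3.52 ± 0.39 (adjusted p 3.2e-07 in edgeR) and BCS1 by 3.16 ± 0.16 (adjusted p 1.6e-12 in edgeR). HB1, a non-symbiotic hemoglobin, differed by 3.27 ± 0.51 (adjusted p 3.1e-05 in edgeR); its WT control libraries had 9.58, 5.06 and 1.40 CPM, the lowest close to the drought values of 1.14, 1.37 and 1.35. RD29B, a marker of the ABA response, differed by -3.28 ± 0.22 (adjusted p 2.2e-10 in edgeR).

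In GER3, EXO, ECS1, BCS1 and RD29B both effects had the same sign and differed in size. CRK12 and DIN11 had a WT change of -3.69 ± 0.32 and -5.02 ± 0.31 and an mta change of -0.17 ± 0.19 and 0.28 ± 0.12, and HB1 fell in WT and changed by 0.95 ± 0.26 in mta.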

How the results depend on the processing

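The counts of genes changed, changed beyond 2-fold and changed in each direction, the members called over the pathway lists, the polysomal count and the count of differences between genotypes stayed within 1.5 times their reported value under every setting run. Leaving out 1 library at a time gave 11103 to 12330 genes changed, 4651 to 5018 beyond 2-fold and 850 to 897 list members, and, for the difference from mta, 5810 to 6956 genes. Without 1 WT polysomal library 15126 to 15240 polysomal genes passed. DESeq2 1.42.0 called 11308 genes, and 3777 beyond 2-fold. The replicate block gave 11918 genes, 4853 beyond 2-fold, 877 list members, 15462 polysomal genes and 6456 differences. Same-numbered control and drought libraries did not deviate together (correlations -0.142 to -0.0338 in mRNA and -0.135 to -0.0257 in polysomal RNA), so the block was not used in the reported fit. Without control replicate 3, the smallest library, 12123 genes passed.

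Removing the trend along gene span moved the median of all genes from -0.01 to 0.14 and the share of rises among called genes from 48.0% to 55.3%. List medians near 0 are read relative to that shift: those of the sugar, gibberellin, GABA, light signalling and chromatin lists changed sign under it. Without a low-count filter the gibberellin median was -1.39, the UGT median -0.51 and the phosphate median -0.24. With WT libraries alone the sugar median was 0.24. Of the counts per list and direction 1723 stayed within 1.5 times and 25 did not. With the span trend removed, rises became 2 for ethylene, 5 for flowering time, 5 for chromatin, 6 for CRKs and 15 for plastid biogenesis, and falls became 1 for the proteasome and 0 for splicing. The other counts that moved came from leaving out 1 library and are given above, apart from that of the flower and meristem markers, whose falls went from 2 to 6 without a filter and to 4 without any 1 of 10 libraries. No named gene that passed changed sign, and the calls of FRI and GAPC2 that moved are given above. The settings for the difference from mta were added after seeing the data. Depth limits genes near 1 CPM, whose zero counts give bounds only.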
